A study of Homo sapiens with 12 samples.

Results

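Expression of the enzymes of serine synthesis and folate one-carbon metabolism was examined in the established human myeloma cell line MM.1S on 12 arrays. The enzymes were 9 genes chosen by name with earlier results of these data known, PSAT1, PHGDH, PSPH, SHMT1, SHMT2, MTHFD1, MTHFD2, MTHFD1L and ALDH1L2. The platform annotation gave a named row to 6 of them (PSAT1, PHGDH, PSPH, SHMT1, SHMT2 and MTHFD1L), out of 14884 genes tested, and the other 3 were not analysed here. Each of the 6 had a single row, and no expression filter was applied.

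The 4 groups held 3 arrays each and shared the cell line and 24 h of exposure. FPD cells were given filanesib (1 nM), which inhibits the mitotic kinesin KIF11, with 500 nM pomalidomide and 10 nM dexamethasone. Pomalidomide is a cereblon ligand that directs IKZF1 and IKZF3 to degradation, and dexamethasone is a synthetic glucocorticoid. PD cells received the same pomalidomide and dexamethasone without filanesib. For F cells the treatment label gives 1 nM filanesib plus 10 nM dexamethasone, while the title and the shared protocol name only F. FPD and F thus differ by pomalidomide alone if the treatment label holds, and by pomalidomide and dexamethasone if F means filanesib alone. DDIT4, a gene that glucocorticoids induce, had 10.44, 10.46 and 10.45 in PD arrays and 5.92, 5.89 and 6.09 in F arrays, against 5.90, 6.06 and 6.02 in Control arrays. FKBP5, another such gene, had 7.18, 7.04 and 6.95 in PD arrays and 6.09, 5.56 and 5.58 in F arrays, against 5.54, 5.60 and 5.56 in Control arrays. Control cells received vehicle. The labels name no separate cultures within a group, so the p-values below measure the spread between arrays, which may be technical, and with 3 arrays a group the number of arrays limits precision.

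Values are log2 RMA expression, the authors' background-corrected and between-array normalized signal, so a difference of 1 is a doubling of signal. Array medians lay between 4.23 and 4.27, arrays of a group correlated at r = 0.988 to 0.992 over 53617 rows, and none were identical. The plasma cell markers with a row (SDC1, XBP1, IRF4, SLAMF7 and CD38, 5 of 7 listed) had group means of 7.38 to 11.44, while the 4 myeloid markers had 2.84 to 4.64 and the 2 measured B cell markers 4.04 to 4.84. The 2 measured T cell markers ranged from 3.94 to 5.95 and the 2 stromal and epithelial markers from 4.46 to 5.93, with CD8A and KRT8 the higher ones. Averaged over its measured members, the plasma cell list ran from 9.76 to 9.80 in FPD, 9.72 to 9.80 in PD, 10.13 to 10.17 in F and 10.11 to 10.21 in Control arrays. IRF4 (log2 change -1.23) and SLAMF7 (-0.48) were the members called lower in PD. SDC1 (-0.03), XBP1 (0.06) and CD38 (-0.28) were not called there. The part of these differences in the enzyme results was not tested. In a bulk sample, fewer cells of a type and less RNA per cell cannot be told apart.

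Serine is made from a glycolytic intermediate in 3 steps. PHGDH oxidises phosphoglycerate, PSAT1 transfers an amino group to the product from glutamate, and PSPH removes the phosphate. The hydroxymethyltransferases SHMT1 (cytosol) and SHMT2 (mitochondria) then move a carbon unit between serine and tetrahydrofolate, giving glycine, and MTHFD1L releases formate from the mitochondrial folate pool. The carbon units feed purine and thymidylate synthesis and the methionine cycle, and ATF4 and MYC are known to drive transcription of several of these enzymes.

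Promoter sequence is printed for the enzymes lower in PD that had an entry. The set of RefSeq promoters used here (GRCh38.p14) held an entry for 4 of the 6 measured genes, PSAT1, PHGDH, SHMT1 and MTHFD1L. It held none for PSPH or SHMT2, which is a limit of that set and not of RefSeq. The 250 bases before the start are given 5′ to 3′ on the gene's strand. For MTHFD1L the first of its listed starts is shown. Capitals mark matches, on either strand, to the NF-Y box CCAAT, the E-box CACGTG that MYC can bind, the C/EBP-ATF element TGATGNAA, the E2F element TTTNNCGC or the glucocorticoid receptor palindrome.
PSAT1 promoter, chr9:78296875-78297124, plus strand: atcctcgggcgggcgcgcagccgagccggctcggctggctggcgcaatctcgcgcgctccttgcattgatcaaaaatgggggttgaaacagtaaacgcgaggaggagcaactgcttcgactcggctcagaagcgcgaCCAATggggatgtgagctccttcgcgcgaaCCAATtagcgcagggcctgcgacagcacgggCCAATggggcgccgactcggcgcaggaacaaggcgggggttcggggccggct
PHGDH promoter, chr1:119711684-119711933, plus strand: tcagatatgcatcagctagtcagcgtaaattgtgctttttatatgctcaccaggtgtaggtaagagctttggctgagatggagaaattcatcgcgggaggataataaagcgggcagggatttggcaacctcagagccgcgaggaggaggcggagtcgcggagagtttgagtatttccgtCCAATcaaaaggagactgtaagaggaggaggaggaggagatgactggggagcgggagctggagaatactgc
SHMT1 promoter, chr17:18363551-18363800, minus strand: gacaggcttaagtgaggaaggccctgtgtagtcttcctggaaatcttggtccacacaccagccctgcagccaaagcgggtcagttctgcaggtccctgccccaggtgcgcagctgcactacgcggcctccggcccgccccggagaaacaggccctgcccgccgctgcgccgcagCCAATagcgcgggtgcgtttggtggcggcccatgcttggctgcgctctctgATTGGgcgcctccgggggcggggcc
MTHFD1L promoter, chr6:150866236-150866485, plus strand: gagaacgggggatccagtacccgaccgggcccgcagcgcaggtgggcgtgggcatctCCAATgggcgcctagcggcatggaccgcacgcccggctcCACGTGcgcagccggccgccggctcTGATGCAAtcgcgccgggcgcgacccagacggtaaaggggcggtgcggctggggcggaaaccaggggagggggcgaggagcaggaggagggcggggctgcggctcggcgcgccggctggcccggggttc
In the PSAT1 promoter the box CCAAT occurs 3 times, starting 113, 83 and 52 bases before the start, and 2.93% of 35116 promoters of this length held at least 3 such matches on either strand. PHGDH has 1 match, starting 71 bases before the start, and SHMT1 has 2, one of them as the reverse complement ATTGG. At least 1 such match was present in 32% of promoters, and at least 2 in 9.53%. The MTHFD1L promoter holds 1 CCAAT, 1 CACGTG (6.34% of promoters) and 1 TGATGCAA, a match to the C/EBP-ATF element (3.14% of promoters). These depend on the start shown: of the 4 starts listed for MTHFD1L, the windows of 3 hold CCAAT, those of 2 (which overlap and hold the same sites) hold CACGTG and TGATGCAA, and that of 1 holds no match. No letters of the E2F element (5.92% of promoters) or of the palindrome (0.327% of promoters) matched in these 4 windows. The matches did not overlap each other. The windows of MTHFD1 and MTHFD2, which were not measured, also hold CCAAT (1 match in MTHFD1 and 2 in MTHFD2), and that of MTHFD1 holds CACGTG. With no window for PSPH, the matches cannot be set against an enzyme that was not called. They describe sequence only and are not evidence of binding or of shared regulation.

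Pomalidomide plus dexamethasone was associated with lower expression of 5 of the 6 enzymes. PSAT1, MTHFD1L, PHGDH, SHMT1 and SHMT2 were lower in PD than in Control (limma, Benjamini-Hochberg adjusted p under 0.05 over all genes), and PSPH did not pass the test. None was higher. The SHMT2 call was near the threshold (limma adjusted p = 0.0477) and held under 5 of 14 alternatives. Those of PSAT1, MTHFD1L, PHGDH and SHMT1 held under all 14. Over all 14884 genes, 15.5% were called by the same rule, 8.63% as lower and 6.84% as higher. The all-gene shares here and below include weakly expressed genes. Tested alone, the 7442 genes above the median mean, which include all 6 enzymes, gave 1436 lower and 986 higher, a larger share. The median log2 change of the 6 enzymes was -0.59, beside -0.003 for all genes. This list and those compared below were chosen with earlier results of these data known. Their shares and medians are descriptions and not tests.

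PSAT1, the aminotransferase of the pathway (transcript cluster 17086193), had the greatest decrease of the 6. Its level was 8.33, 8.10 and 7.92 in PD arrays, against 9.59, 9.64 and 9.29 in Control arrays. All PD arrays lay below all Control arrays. The means were 8.11 ± 0.20 in PD and 9.51 ± 0.19 in Control (SD, n = 3 each), a log2 change of -1.39 (95% interval -1.65 to -1.13), or 2.62-fold lower, with limma adjusted p = 1.57e-06. This was the 9th lowest log2 change among the 14884 genes.

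PHGDH, which encodes the first and committed enzyme of serine synthesis (transcript cluster 16669389), had 6.59, 6.46 and 6.57 in PD arrays, against 7.21, 7.24 and 7.03 in Control arrays. The groups did not overlap. PHGDH was 1.53-fold lower in PD (log2 change -0.62, 95% interval -0.82 to -0.41, limma adjusted p = 0.000317). The intervals of PSAT1 and PHGDH did not meet, so the decrease of PSAT1 signal was the larger on this scale.

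PSPH, the phosphatase of the last step (transcript cluster 17057946), had 7.09, 6.66 and 6.96 in PD arrays, against 6.72, 6.98 and 6.72 in Control arrays. The groups overlapped. Its log2 change in PD was 0.09 (95% interval -0.17 to 0.36, limma adjusted p = 0.719), an interval that does not reach the decreases of PSAT1 or PHGDH. The RefSeq table lists a pseudogene PSPHP1, as well as 4 PSAT1 pseudogenes and SHMT1P1, so hybridisation from copies cannot be told apart from the parent gene with certainty.

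Of the hydroxymethyltransferases, the cytosolic SHMT1 (transcript cluster 16842103) had 6.92, 6.22 and 6.59 in PD arrays, against 7.15, 7.02 and 7.24 in Control arrays. The PD arrays were all lower, but replicate 1 lay only just below the Control range and the PD spread (SD 0.35) was the widest of any enzyme in any group. SHMT1 was 1.48-fold lower (log2 change -0.56, 95% interval -0.84 to -0.28, limma adjusted p = 0.00843). Without PD replicate 2 the log2 change was -0.38 (limma adjusted p = 0.0401).

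The mitochondrial SHMT2 (transcript cluster 16752834) had 6.99, 6.99 and 6.94 in PD arrays, against 7.29, 7.39 and 7.11 in Control arrays. The groups did not overlap, but the difference was small (log2 change -0.29, 95% interval -0.49 to -0.09, 1.22-fold lower, limma adjusted p = 0.0477). The call ended without PD replicate 1 (limma adjusted p = 0.0861), 2 (0.0936) or 3 (0.12), and without Control replicate 1 (0.118) or 2 (0.191). It also ended when arrays were quantile normalized again (limma adjusted p = 0.105) or centred on their medians (0.0547), over every row of the table (0.0925) and with only PD and Control arrays fitted (0.103), so 4 of the 6 enzymes were lower there.

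MTHFD1L, the mitochondrial enzyme that yields formate (transcript cluster 17013728), had 6.28, 6.52 and 5.98 in PD arrays, against 7.18, 6.95 and 7.25 in Control arrays. The groups did not overlap. It was 1.83-fold lower in PD (log2 change -0.87, 95% interval -1.14 to -0.60, limma adjusted p = 0.000166), the decrease next in size after that of PSAT1. The value of 5.98 was the lowest of the 6 enzymes over all arrays and still lay above the array medians.

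**Figure D1:**
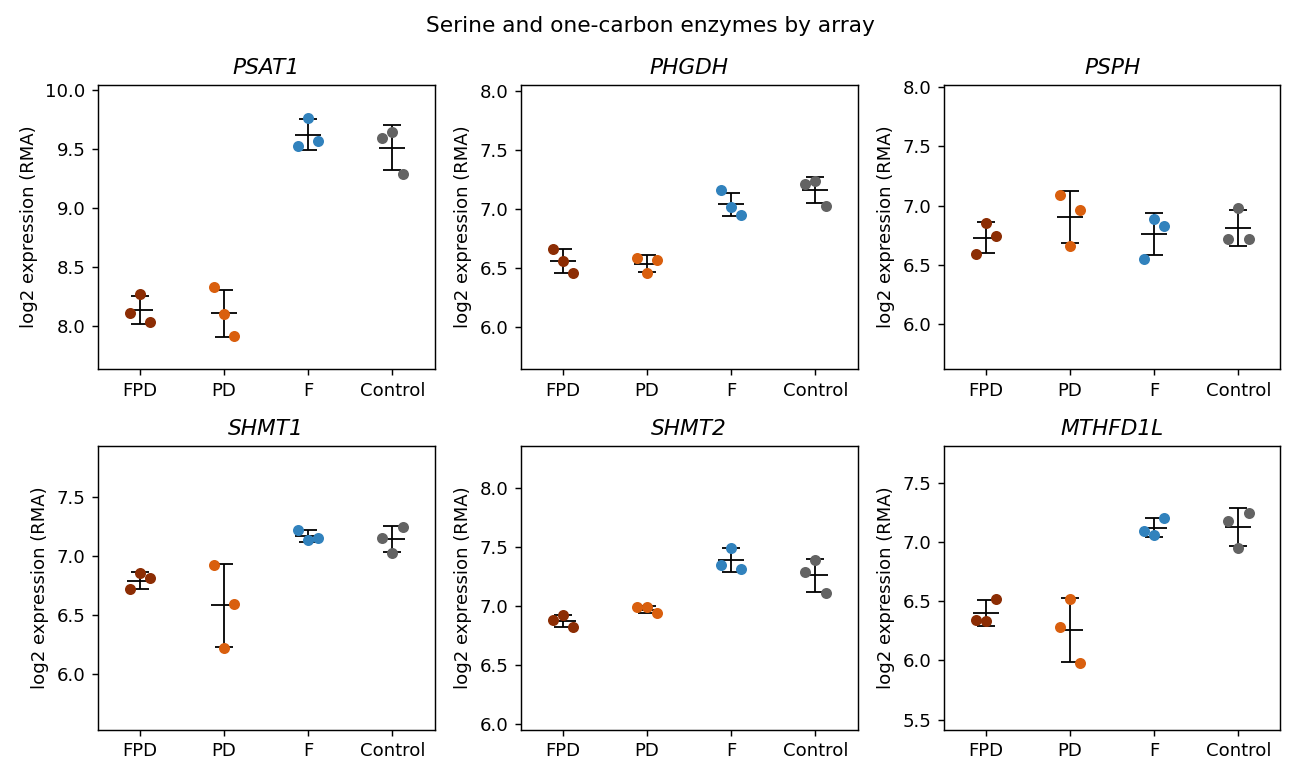
Log2 RMA expression of the 6 measured enzymes in the FPD, PD, F and Control groups. Points are single arrays, and the bars give the mean and SD of 3 arrays. FPD and PD arrays lie below F and Control arrays for PSAT1, PHGDH, SHMT1, SHMT2 and MTHFD1L, and all groups overlap for PSPH.

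The F arm was compared with Control to ask what filanesib, with or without dexamethasone, did to these genes. None of the 6 enzymes passed the test in F (limma), none had an unadjusted p under 0.05, and none passed with a trended, robust variance prior. Over all genes 0.00672% were called. PSAT1 had 9.52, 9.76 and 9.57 in F arrays, within or above the Control range, and a log2 change of 0.11 (95% interval -0.15 to 0.37, limma adjusted p = 0.932). MTHFD1L had 7.09, 7.06 and 7.20 in F arrays, all inside the Control range, and a log2 change of -0.01 (95% interval -0.28 to 0.25). PHGDH (-0.12), PSPH (-0.05), SHMT1 (0.03) and SHMT2 (0.12) had log2 changes in F with adjusted p-values of 0.912 or more (limma).

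In the cells given all 3 drugs, 4 of the 6 enzymes were lower than in Control, PSAT1, PHGDH, SHMT2 and MTHFD1L, and none was higher, where 5.89% of all genes were lower and 7.26% higher (13.1% in all). This comparison uses the same Control arrays as those of PD and F. PSAT1 had 8.11, 8.27 and 8.04 in FPD arrays, apart from the Control arrays, and was 2.58-fold lower (log2 change -1.37, 95% interval -1.63 to -1.11, limma adjusted p = 1.95e-06). MTHFD1L had 6.34, 6.33 and 6.52 in FPD arrays and was 1.66-fold lower than in Control (log2 change -0.73, limma adjusted p = 0.000857). PHGDH had 6.66, 6.56 and 6.46 in FPD arrays and was 1.52-fold lower (log2 change -0.60, limma adjusted p = 0.000451).

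SHMT2 had 6.88, 6.92 and 6.82 in FPD arrays, below every Control array (log2 change -0.39, 95% interval -0.59 to -0.19, limma adjusted p = 0.0104). Its call ended without Control replicate 2 (limma adjusted p = 0.0554). SHMT1 had 6.72, 6.85 and 6.81 in FPD arrays, also below the Control arrays, but its log2 change of -0.34 (95% interval -0.63 to -0.06) did not pass the test (limma adjusted p = 0.113, and 0.0362 when only FPD and Control arrays were fitted). PSPH had 6.59, 6.85 and 6.74 in FPD arrays, which overlapped the Control arrays (log2 change -0.08, limma adjusted p = 0.772).

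Adding filanesib to pomalidomide plus dexamethasone left no called difference in the 6 enzymes. In FPD against PD none passed the test (limma), none had an unadjusted p under 0.05, and 0.0336% of all genes were called. The log2 change of PSAT1 was 0.02 (95% interval -0.24 to 0.29) and that of PHGDH 0.01 (95% interval -0.19 to 0.22). For SHMT1, called in PD and not in FPD, the difference between FPD and PD was 0.22 (95% interval -0.07 to 0.50, limma adjusted p = 0.686). SHMT2 arrays of FPD lay just below those of PD (log2 change -0.10, 95% interval -0.30 to 0.10, limma adjusted p = 0.795). PSPH (-0.18) and MTHFD1L (0.14) had intervals that included 0 as well, from -0.45 to 0.09 for PSPH and from -0.13 to 0.40 for MTHFD1L.

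The departure from additivity, FPD minus PD minus F plus Control, was also not called for any of the 6 (limma), and none of them had an unadjusted p under 0.05. Of all genes, 0% were called, with 833 at an unadjusted p under 0.05. Its values ran from -0.22 for SHMT2 (95% interval -0.50 to 0.06) to 0.19 for SHMT1 (95% interval -0.21 to 0.59). For PSAT1 the value was -0.09 (95% interval -0.46 to 0.28), with both bounds smaller in size than its log2 change in PD. The contrast measures additivity only if F means filanesib alone. If the treatment label of F holds, FPD, PD and F all contain dexamethasone and Control does not. The contrast then also carries the dexamethasone effect with its sign reversed, and its values do not show whether effects add.

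**Figure D2:**
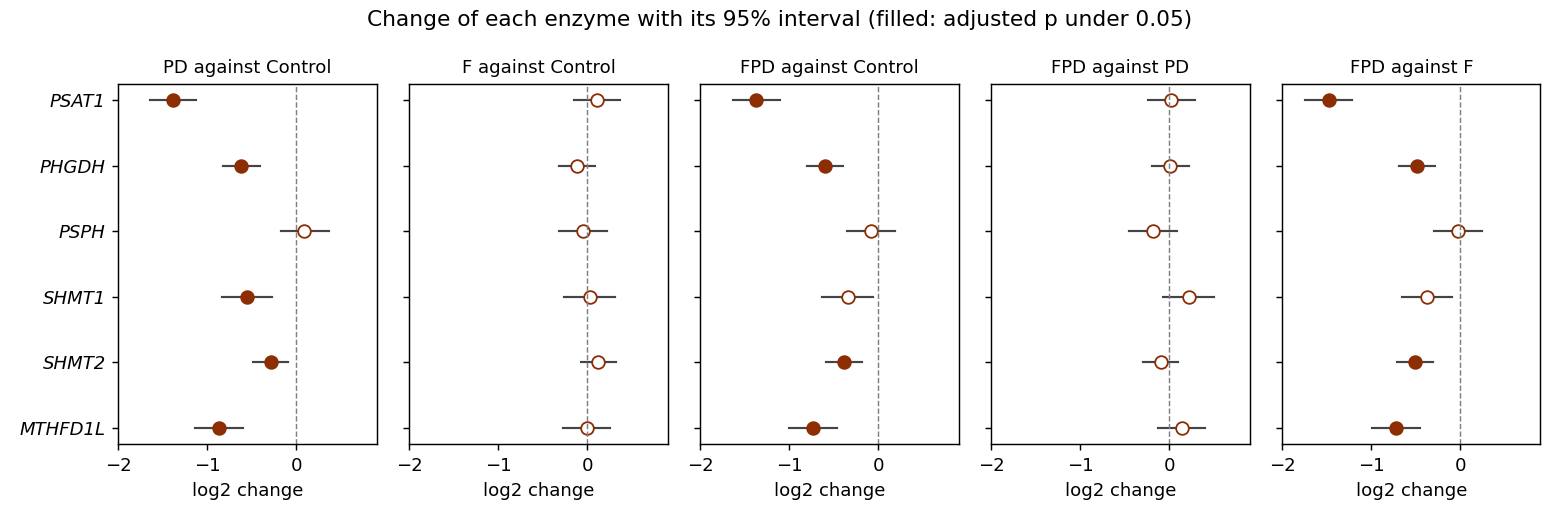
Log2 change of each enzyme in the 5 pairwise comparisons, with bars for the 95% interval of the linear model and filled symbols for an adjusted p under 0.05. Filled symbols stand left of 0 in PD against Control, FPD against Control and FPD against F, and every symbol is open in F against Control and in FPD against PD.

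FPD against F shares no array with PD against Control. In it 4 of the 6 enzymes were lower and none higher, with 6.64% of all genes lower and 7.5% higher (14.1% in all). PSAT1 had 8.11, 8.27 and 8.04 in FPD arrays, against 9.52, 9.76 and 9.57 in F arrays, and was 2.79-fold lower (log2 change -1.48, 95% interval -1.74 to -1.22, limma adjusted p = 9.34e-07). MTHFD1L was 1.65-fold lower (log2 change -0.72, limma adjusted p = 0.000914). PHGDH had 6.66, 6.56 and 6.46 in FPD arrays, against 7.16, 7.02 and 6.95 in F arrays, and was 1.40-fold lower (log2 change -0.49, limma adjusted p = 0.00243).

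SHMT2 had 6.88, 6.92 and 6.82 in FPD arrays, against 7.35, 7.49 and 7.31 in F arrays, a wide gap for this gene. It was 1.42-fold lower (log2 change -0.51, 95% interval -0.71 to -0.31, limma adjusted p = 0.00131), a call that held under all 14 alternatives tried, unlike that in PD against Control. SHMT1 had 6.72, 6.85 and 6.81 in FPD arrays, against 7.22, 7.13 and 7.15 in F arrays. The groups did not overlap, but the log2 change of -0.37 did not pass the test (limma adjusted p = 0.08, 0.0401 among genes above the median mean, and 0.0153 when only these arrays were fitted). PSPH had a log2 change of -0.03 (95% interval -0.30 to 0.24), and its sign changed without FPD replicate 1 or without F replicate 2 or 3.

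**Figure D3:**
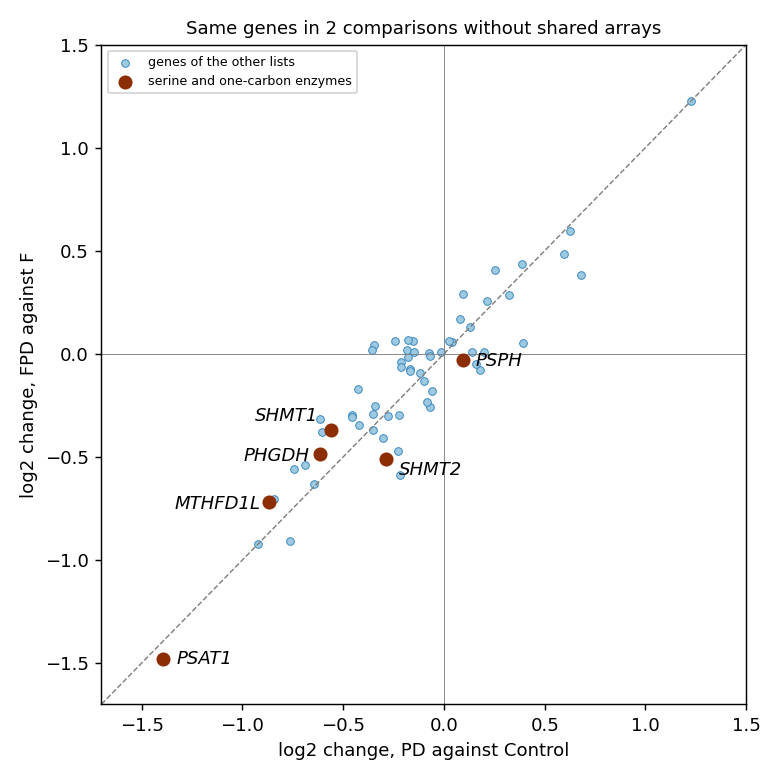
Log2 change in FPD against F (vertical) plotted over the log2 change in PD against Control (horizontal), comparisons that share no array. Dark points are the 6 enzymes, light points the genes of the other lists, and the dashed line marks equal change. PSAT1 lies at -1.39 and -1.48, and PSPH near 0 on both axes.

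Of the other enzymes that handle serine, glycine and folate, a share near that of all genes was called in PD (21.4%, against 15.5% of all genes). Of 14 with a row (of 23 listed), 1 was lower in PD than in Control (7.14%, against 8.63% of all genes) and 2 were higher (14.3%, against 6.84%), and the median log2 change was -0.05. GLDC, the glycine-cleaving subunit of the mitochondrial glycine cleavage system, had 9.05, 9.0 and 8.86 in PD arrays, against 9.59, 9.70 and 9.56 in Control arrays. GLDC was lower in PD (log2 change -0.64, limma adjusted p = 0.000286) and in FPD (-0.78, limma adjusted p = 6.05e-05), each group lying apart from Control. For DLD, the dehydrogenase subunit that this system shares with other complexes, the log2 change was -0.28 (limma adjusted p = 0.103). SRR, which converts L-serine to D-serine, rose in PD (0.68, limma adjusted p = 0.00175), and so did PIPOX, a sarcosine and pipecolate oxidase (0.60, limma adjusted p = 0.0152, and 0.0801 without PD replicate 1). In FPD against Control 1 of the 14 was lower and 1 higher (7.14% each, against 5.89% of all genes lower and 7.26% higher).

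Of 13 listed carriers only 4 had a row, and 2 of these were lower in PD, with none higher, where 8.63% of all genes were lower and 6.84% higher. SFXN1, the mitochondrial serine importer, had 5.60, 5.61 and 5.54 in PD arrays, against 6.18, 6.21 and 6.19 in Control arrays. The gap was many times the spread within either group (log2 change -0.61, limma adjusted p = 0.000123). In FPD arrays SFXN1 had 5.73, 5.83 and 5.83, also below every Control array (log2 change -0.39, limma adjusted p = 0.00505). Its relative SFXN2 was lower too in PD (-0.35, limma adjusted p = 0.0121, and 0.0638 without Control replicate 2). SFXN3 (-0.24) and the folate receptor gene FOLR1 (-0.18) did not pass the test in PD, with limma adjusted p = 0.251 for SFXN3 and 0.381 for FOLR1.

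Among genes of the pathways that use the carbon units, most of those of thymidylate and purine synthesis were lower in PD, and fewer of those of the methionine cycle. Of 11 measured genes of thymidylate and purine synthesis (of 14 listed), 8 were lower in PD (72.7%, against 8.63% of all genes) and none higher (6.84% of all genes), with a median log2 change of -0.43. PPAT, which commits ribose to purine synthesis, had 7.59, 7.73 and 7.52 in PD arrays, against 8.38, 8.68 and 8.30 in Control arrays (log2 change -0.84, limma adjusted p = 9.66e-05). PRPS1, which makes the activated ribose, was lower by a similar amount (-0.77, limma adjusted p = 0.000184). TYMS, the thymidylate synthase, was lower in PD (-0.35, limma adjusted p = 0.023, and 0.0784 without PD replicate 3) and had a value of -0.29 in FPD (limma adjusted p = 0.0618). ADSL (-0.10) and ADSS1 (0.20), of adenylate synthesis, had the highest values in PD and did not pass the test. In FPD against Control 7 of the 11 were lower (63.6%, against 5.89% of all genes) and none higher (7.26% of all genes).

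In the methionine cycle and transsulfuration, 3 of 12 measured genes (of 14 listed) were lower in PD and none higher (25% called, against 15.5% of all genes), with a median log2 change of -0.17. The other 9 were not called. AMD1, which diverts S-adenosylmethionine to polyamines, had 9.10, 9.22 and 9.26 in PD arrays, against 10.01, 10.31 and 10.02 in Control arrays (log2 change -0.92, limma adjusted p = 4.14e-05). MTAP, which returns the by-product of that route to methionine, was also lower (-0.69, limma adjusted p = 8.04e-05). CTH (0.39) and GNMT (0.14) did not pass the test in PD, with limma adjusted p = 0.11 for CTH and 0.429 for GNMT.

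Genes of the amino acid response differed in both directions. Of 13 measured (of 22 listed), 1 was lower in PD and 2 higher (23.1% called, against 15.5% of all genes), and the median log2 change was -0.07. In FPD against Control 2 were lower and 3 higher (38.5% called, against 13.1% of all genes), with a median of -0.10. ATF4 mRNA had 9.02, 9.02 and 9.14 in PD arrays, against 9.22, 9.06 and 9.15 in Control arrays (log2 change -0.09, limma adjusted p = 0.599). For ASNS, the asparagine synthetase and a classical ATF4 target, the log2 change was -0.06 (limma adjusted p = 0.839). EIF2AK4, which encodes the amino acid sensing kinase GCN2, had 8.16, 8.05 and 8.0 in PD arrays, against 6.85, 6.83 and 6.85 in Control arrays. It rose by 1.22 on the log2 scale in PD (limma adjusted p = 5.23e-07) and by 1.23 in FPD (limma adjusted p = 4.9e-07). VLDLR (0.39) was the other gene that rose in PD, ATF3 (-0.36) was the one that fell, and PYCR1, of proline synthesis, lay at -0.30 (limma adjusted p = 0.084). Both calls ended with an array left out, with limma adjusted p = 0.156 for VLDLR without PD replicate 2 and 0.115 for ATF3 without Control replicate 2.

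The genes of this list called lower in FPD against Control were TRIB3 and PYCR1. TRIB3, a pseudokinase gene that ATF4 induces, had 6.36, 6.01 and 6.24 in FPD arrays, against 6.81, 6.84 and 6.54 in Control arrays. The groups did not overlap (log2 change -0.53, limma adjusted p = 0.00505), and the call held under all 14 alternatives. In PD against Control the log2 change of TRIB3 was -0.22 (limma adjusted p = 0.253), and in FPD against PD it was -0.31 (limma adjusted p = 0.446). PYCR1 had a log2 change of -0.42 in FPD (limma adjusted p = 0.0195, and 0.0818 without FPD replicate 3). Besides EIF2AK4, the genes called higher in FPD were SESN2, a stress-induced sensor of leucine (0.38, limma adjusted p = 0.0373, and 0.184 without FPD replicate 1), and VLDLR (0.40, limma adjusted p = 0.0273, and 0.111 without FPD replicate 2).

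In F against Control none of the 59 measured genes of the 6 neighbouring lists, glutathione and NADPH included, was called (limma), with 1 at an unadjusted p under 0.05. In FPD against PD none was called either, with 3 at an unadjusted p under 0.05.

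MYC itself had 10.06, 10.17 and 10.18 in PD arrays, against 10.61, 10.70 and 10.65 in Control arrays (log2 change -0.52, limma adjusted p = 0.000574). In FPD arrays MYC had 9.89, 9.74 and 9.82 (log2 change against Control -0.83, limma adjusted p = 8.57e-06). The FPD arrays lay below the PD arrays, though FPD against PD did not pass the test (log2 change -0.32, limma adjusted p = 0.251). Whether MYC or ATF4 had a part in the enzyme changes was not tested, and the arrays measure mRNA, not protein.

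**Figure D4:**
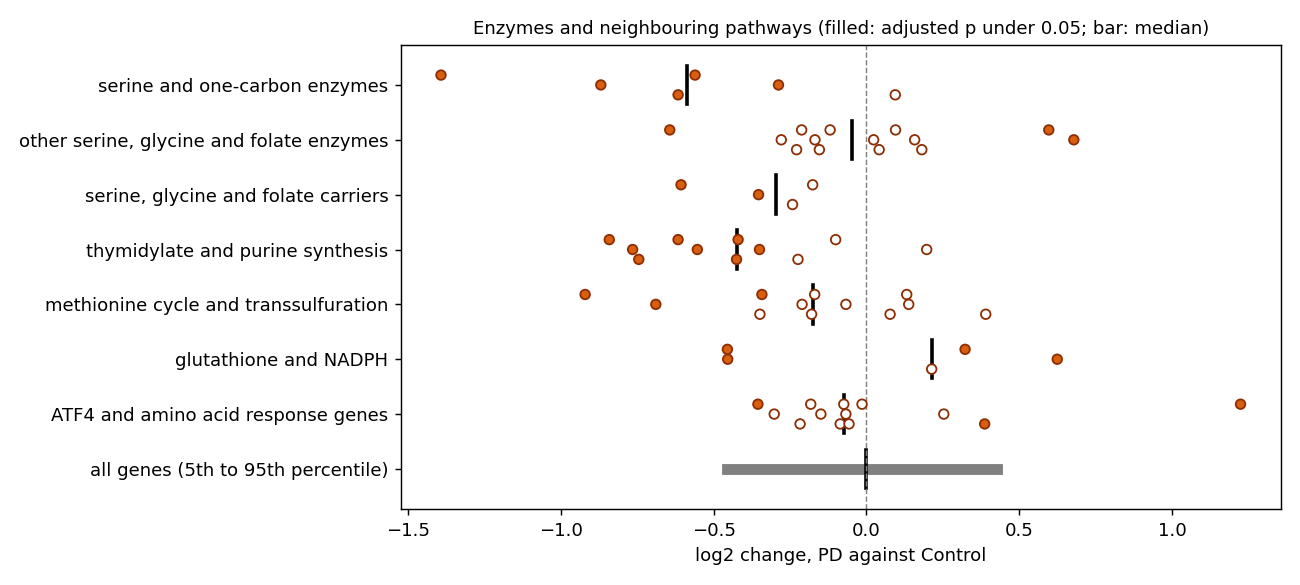
Log2 change in PD against Control for each measured gene of the enzyme set and of the 6 neighbouring lists, with filled points for an adjusted p under 0.05 and black bars for list medians. The grey bar spans the 5th to the 95th percentile of all 14884 genes. The median is -0.59 for the enzymes, -0.43 for thymidylate and purine synthesis and -0.07 for ATF4 and amino acid response genes.

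**Figure D5:**
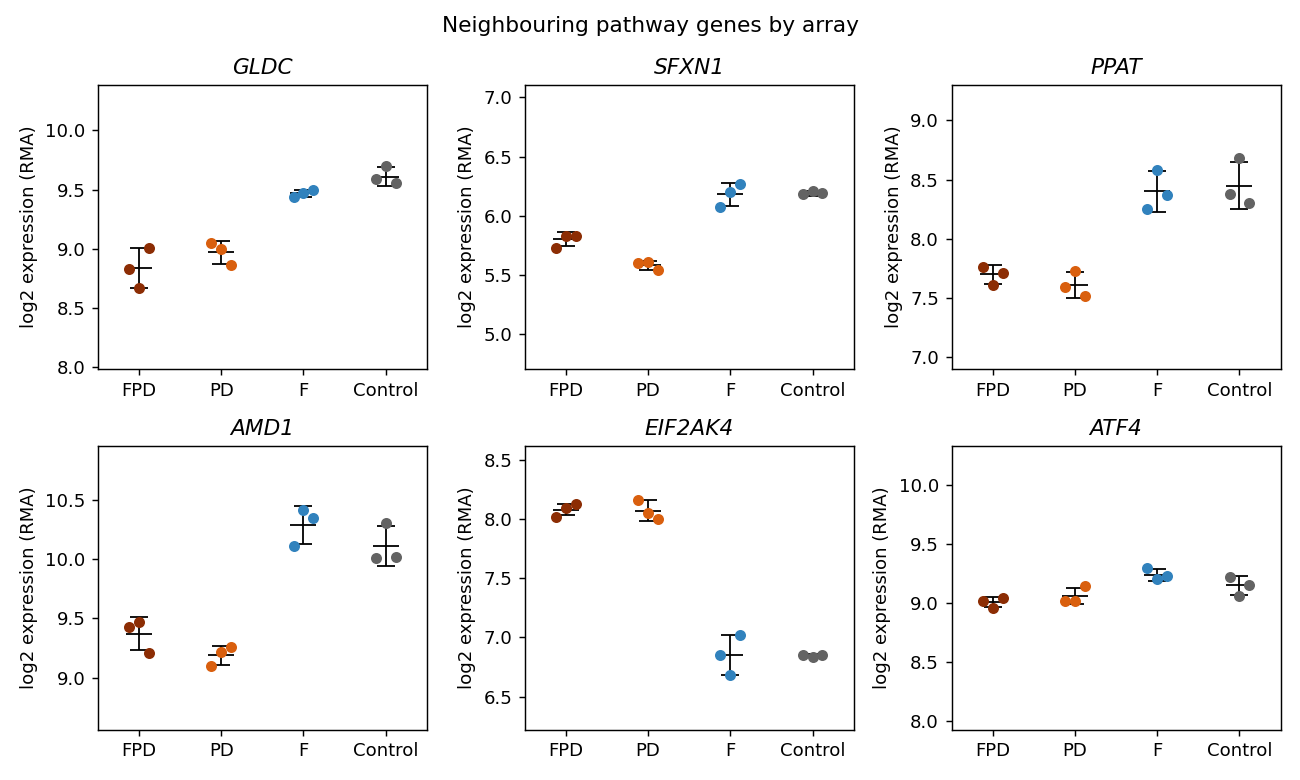
Log2 RMA expression of GLDC, SFXN1, PPAT, AMD1, EIF2AK4 and ATF4 by array, in the FPD, PD, F and Control groups, with bars for the mean and SD of 3 arrays. GLDC, SFXN1, PPAT and AMD1 are lower and EIF2AK4 is higher in FPD and PD than in F and Control.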

How the data were processed

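RNA of 12 MM.1S samples (4 groups of 3, from the titles) was hybridised to Affymetrix arrays. The deposited log2 expression values were produced by the authors, who used RMA in Affymetrix Expression Console according to the submitters' processing notes. Versions, further settings and the genome build are not given in the sources used here. RMA compresses weak signals, so small folds of dim genes are understated, and between-array normalization hides a change in total RNA per cell.

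Names came from the platform annotation: of 53617 rows, 16098 had 1 symbol, 0 had several and 37519 had none. The row with the highest mean stood for a gene (14884 genes, 779 with more than 1 row). The 12 arrays entered 1 limma model with a mean per group (limma 3.58.1, R 4.3.3; lmFit, then eBayes with 8 residual degrees of freedom). Tests were two-sided, Benjamini-Hochberg adjusted over all genes and called at 0.05, and the script was tested on simulated data. Lists were described by counts and medians. The enzymes, lists and alternatives were chosen with earlier results of these data known. Named in the text are the 6 enzymes, the 2 highest and 2 lowest changes of each other list in PD, MYC, ATF4, ASNS and TYMS, and the 3 genes nearest to PSAT1 and to SHMT2. DDIT4, FKBP5, TRIB3, SESN2 and MTRR were added after their values were seen.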

Additional observations from a re-analysis of the deposited data

How the results depend on the processing

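In PD against Control, PSAT1, PHGDH, SHMT1 and MTHFD1L kept direction and call under all 14 alternatives (limma). PSAT1 ranged from -1.50 to -1.29, PHGDH from -0.68 to -0.57, SHMT1 from -0.73 to -0.38 and MTHFD1L from -1.0 to -0.73. SHMT2 ranged from -0.36 to -0.22 and was called under 5 of the 14. In FPD against F, PSAT1, PHGDH, SHMT2 and MTHFD1L were called under all 14. PSAT1, PHGDH and MTHFD1L were also called under all 14 in FPD against Control. The median of all genes moved by less than 0.1 under each scaling.

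Of the named genes of the other lists called in PD, TYMS and GSS were called under 8 of 14 alternatives and ATF3 under 7. PIPOX was called under 8 and VLDLR under 7 of 13. MTRR was called under 12 of 14, and SFXN2 and GSR under 13 of 14. None of these changed sign. Apart from the filter on low values, 7 to 8 genes of thymidylate and purine synthesis were lower in PD and 6 to 8 in FPD against Control, with none higher.

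No pairing of arrays by replicate number was seen (r of deviations -0.26 to 0.16, with 4 of 18 pairs over 0.1). Of the 12 arrays, 5 were best correlated with their own number. With so few arrays this does not exclude a pairing that affects some genes. With the replicate block 5 enzymes were lower in PD, 4 in FPD against Control and 4 in FPD against F, as without it, and all-gene calls were 1270 lower and 1007 higher in PD.

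Signs changed only for values that were not called. On quantile normalization FPD against PD gave PSAT1 -0.0359 and PHGDH -0.0401. With single arrays left out, F against Control ranged from -0.1177 to 0.0502 for PSPH, -0.0319 to 0.0788 for SHMT1 and -0.1004 to 0.0482 for MTHFD1L. FPD against PD ranged from -0.0730 to 0.1306 for PSAT1, -0.0344 to 0.0639 for PHGDH and -0.0043 to 0.2701 for MTHFD1L. PSPH ranged from -0.1444 to 0.0034 in FPD against Control and -0.1328 to 0.0365 in FPD against F, and the departure from additivity of PSAT1 from -0.1851 to 0.0193.

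All-gene counts were unstable where few genes were called. In F against Control 1 gene was higher, against 0 among genes above the median mean and with the replicate block, 4 with a trended, robust prior, 31 over all rows (with 1 lower) and 0 to 2 with an array left out. In FPD against PD 5 were higher, against 19 (1 lower) among genes above the median mean, 0 with the mean of a gene's rows and with the replicate block, 93 (1 lower) over all rows, 28 (3 lower) with a trended prior, 8 in the compared arrays alone, and 0 to 11 higher and 0 to 4 lower with an array left out. Quantile normalization gave 1 lower there. In FPD against F 988 genes were lower, and 657 to 985 with an array left out, the fewest without F replicate 2. The cause was not tested.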

Other observations

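Genes of glutathione and NADPH metabolism moved in both directions in PD. Of 5 measured (of 12 listed), 2 were higher and 2 lower than in Control (40% each, against 6.84% of all genes higher and 8.63% lower), with a median log2 change of 0.21, beside -0.003 for all genes. The glutathione peroxidase gene GPX1 rose (log2 change 0.62, limma adjusted p = 0.000198), as did the glutathione synthetase gene GSS (0.32, limma adjusted p = 0.0276, and 0.112 without PD replicate 2). The glutathione reductase gene GSR (-0.45, limma adjusted p = 0.0117, and 0.0663 without PD replicate 2) and PGD of the pentose phosphate pathway (-0.45, limma adjusted p = 0.00256) fell.

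The genes nearest to PSAT1 in pattern over the 12 arrays, by the root mean square difference of log2 values after each gene's mean was subtracted, were CCL3L1 (0.145), MSANTD3-TMEFF1 (0.167) and POLR3G (0.168). CCL3L1 encodes a chemokine and is nearly identical to CCL3, MSANTD3-TMEFF1 is a read-through locus, and POLR3G encodes a subunit of RNA polymerase III. Their log2 changes in PD were -1.28 for CCL3L1, -1.31 for MSANTD3-TMEFF1 and -1.59 for POLR3G. Nearest to SHMT2 were the nucleolar protein gene RSL1D1 (0.0514), the heterochromatin protein gene CBX3 (0.0562) and the spliceosome gene SNRNP27 (0.0613). This measure describes likeness of profile only.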
